A study of Mus musculus with 18 samples.

Results

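The nuclear-encoded subunits of the mitochondrial respiratory chain were followed in 18 RNA-sequencing libraries of mouse bone marrow-derived macrophages. Members were the rows of the deposited expression table whose gene symbol names a subunit of complex I (Nduf followed by a, b, c, s or v and a number), complex II (Sdha to Sdhd), complex III (Uqcr symbols and Cyc1), complex IV (Cox4 to Cox8) or complex V (Atp5 symbols). Symbols containing -ps were left out, but 3 of the members kept by this rule are annotated as processed pseudogenes. This gave 85 members of 21380 gene identifiers: 37 of complex I, 4 of complex II, 9 of complex III, 18 of complex IV and 17 of complex V, with Ndufa4 and Ndufa4l2 placed in complex IV on background knowledge. For testing, 3 or more libraries had to reach a normalized count of 10, and 80 members met this, the exceptions being Ndufa11b, Ndufs6b, Cox4i2, Cox6c2 and Ndufa4l2.

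Marrow from 3 wild-type (WT) animals and 3 animals labelled LDHA KO, a knockout of the lactate dehydrogenase A gene Ldha, was grown into macrophages for 7 days with macrophage colony-stimulating factor at 30 ng/mL. Cells of every animal were then left untreated, treated for 24 hours with interferon-gamma (IFN-gamma), or treated for 24 hours with interleukin 4 (IL-4). IFN-gamma polarises macrophages towards the inflammatory state known as M1, and IL-4 towards the state known as M2. The 6 groups thus held 3 libraries each, and all were cultured in the same growth factor. The labels name no Cre driver for the knockout, and they give neither age, sex nor strain. The study's title describes lactate dehydrogenase expression specific to macrophages and its influence on inflammatory function.

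Complexes I and II pass electrons from NADH and succinate to ubiquinone, complex III passes them to cytochrome c, and complex IV passes them to oxygen. Complexes I, III and IV pump protons as they do so, and complex V (ATP synthase) uses the proton gradient to make ATP. Complex II is also the succinate dehydrogenase of the citric acid cycle. Most subunits are encoded in the nucleus, whereas a few core subunits of complexes I, III, IV and V are encoded by mitochondrial DNA. Macrophages given IL-4 are known for a reliance on oxidative metabolism, and macrophages activated towards inflammation for a reliance on glycolysis.

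Library depth ran from 9772945 to 49537719 reads in the table, and the shallowest library was WT IL-4 replicate 2. Ldha itself stood at 20.0%, 25.6% and 17.5% of the WT mean in untreated, IFN-gamma and IL-4 KO libraries, and no KO library overlapped a WT library of its treatment. Lyz2, a macrophage lysozyme, was at 0.124%, 0.0866% and 0.133% of WT in the same order. The 9 macrophage markers examined, Lyz2 among them, were detected in all groups, and between KO and WT 0 were higher and 2 lower without treatment, 3 higher and 4 lower with IFN-gamma, and 0 higher and 5 lower with IL-4, where 1.98%, 27.9% and 6.59% of all genes passed in that order. Summed markers of stromal cells and fibroblasts (14 in the table, 11 tested) reached 653 to 2236 normalized counts in KO untreated libraries against 269 to 744 in WT, 425 to 1309 against 254 to 511 with IFN-gamma, and 719 to 2123 against 334 to 1177 with IL-4. Summed neutrophil markers (5 in the table, 1 tested) were at 31.2 to 67.0 in KO libraries with IFN-gamma against 2.25 to 4.72 in WT, where the tested marker S100a8 was higher in KO (log2 difference 4.77, adjusted p = 1.80e-06), and at or below 27.8 in all other groups, and the single erythroid marker in the table at or below 9.05. Markers of other cell types moved with treatment as well. Of 6 tested osteoclast markers 5 rose with IL-4 in each genotype and 1 fell in KO, where 16.3% of all genes were higher in WT and 15.8% in KO. Osteoclast markers summed to 7975 to 9586 in WT untreated libraries and 30135 to 32656 with IL-4. With IFN-gamma 1 of the 6 rose and 3 fell in each genotype. Of 4 tested dendritic cell markers 4 rose with IFN-gamma in WT and 3 in KO, where 31.4% and 28.3% of all genes were higher. These summed to 8.77 to 14.4 in WT untreated libraries and 1491 to 2531 with IFN-gamma. Between KO and WT with IFN-gamma, 4 of the 6 osteoclast markers were higher in KO and none lower, and 1 dendritic cell marker was higher and 1 lower. The 3 lymphocyte markers in the table summed to between 25.2 and 323. The part of the macrophage, neutrophil, osteoclast, dendritic cell and lymphocyte markers in the results was not tested. In bulk RNA, fewer cells of a type and less RNA per cell cannot be told apart. Counts are per gene without a stated strand setting, so the 27 members that share exon bases with a gene on the opposite strand carry that uncertainty. With any strand counted, 30 members share exon bases with another gene. Ndufb2, Ndufb8, Ndufb9, Atp5o and Atp5g2 share them with an entry on the same strand, which a strand setting would not separate.

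Members differed widely in level. Per 1000 bases of annotated exon, averaged over all libraries, the highest normalized counts were those of Cox4i1, the largest nuclear-encoded subunit of complex IV, at 7852 and of Atp5b, the catalytic beta subunit of ATP synthase, at 5199.7. Within complex I the highest was Ndufa2 at 3160.5, within complex II Sdhd at 3375 and within complex III Uqcrh at 2369.9. The lowest tested members per 1000 bases were Ndufb2 at 49.9, Sdhc at 1346, Uqcrc1 at 696, Cox6b2 at 6.23 and Atp5l at 17.5 for complexes I to V. Exon lengths merge every annotated isoform, which lowers the value of a gene with a rarely used long exon. Genes with near-identical processed copies are uncertain, since the labels do not say how shared reads were counted. Median exon length was 1631 bases for the 80 tested members and 3991 bases for all genes tested. Of the tested members 19 were shorter than 1000 bases.

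Isoforms differed in level on the same scale, normalized counts per 1000 exon bases. Cox4i1 stood at 7852 and Cox4i2, its counterpart in lung, at 2.95. Cox6a1, the form of most tissues, stood at 5537 and Cox6a2, the heart and muscle form, at 152. Cox6b1 stood at 5092 against 6.23 for Cox6b2, a testis form. Cox7a2 stood at 2355 against 62.4 for Cox7a1, the muscle form. Of the genes for the proton-carrying c subunit of ATP synthase, Atp5g3 stood at 2299, Atp5g2 at 201 and Atp5g1 at 161. Ndufa4 stood at 1223 and Ndufa4l2, a form known from low oxygen, at 2.40.

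RefSeq promoter windows (assembly GRCm38.p6, 250 bases before to 50 after a start site) were found for 66 of the 85 members, with 71 windows in all. Motif cores of factors known for respiratory genes were searched on both strands, and matches of different motifs may overlap. The NRF1 core (GCGC, then any base, then TGCGC) was in 25.4% of member windows and 4.60% of all 32851 windows. The ETS core CCGGAAG was in 23.9% against 8.86%, the YY1 core AAGATGG in 15.5% against 6.34%, and the estrogen-related receptor core AAGGTCA in 11.3% against 4.72%. The general cores CCAAT (42.3% against 37.4%) and GGGCGG of SP1 (39.4% against 35.7%) were nearer to their shares over all windows. Members with the NRF1 core numbered 7 of 31 in complex I, 2 of 3 in complex II, 1 of 5 in complex III, 1 of 12 in complex IV and 6 of 15 in complex V. A match is a stretch of letters and says nothing about occupancy.

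The upstream stretches of 5 members whose transcripts are described below are printed 5′ to 3′ on the gene's strand, free of annotated exons. They show how differently the motif cores are placed among members with changes given further on. Each stretch stops before the start site or at an exon. Outside the stretches, the full windows also hold an NRF1 match of Atp5g3 and ETS matches of Ndufs8 and Cox6a1. Capitals mark matches to the motif cores, and a match on the opposite strand shows as the reverse complement, CCGCCC for the SP1 core. In the printed stretches Ndufs8 has 3 CCAAT matches, and Ndufb2 an estrogen-related receptor match and a CCAAT match. Cox5a has a single SP1 match on the opposite strand. Cox6a1 has 2 NRF1 matches, 2 SP1 matches and a CCAAT match. Atp5g3 has a CCAAT match and an estrogen-related receptor match on the opposite strand.
Ndufs8, chr19:3912775-3913024, minus strand: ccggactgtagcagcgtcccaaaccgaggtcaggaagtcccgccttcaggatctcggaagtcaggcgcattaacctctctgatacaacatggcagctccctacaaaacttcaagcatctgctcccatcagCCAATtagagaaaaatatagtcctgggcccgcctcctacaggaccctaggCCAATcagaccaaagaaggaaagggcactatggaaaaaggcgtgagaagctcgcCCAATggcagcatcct
Ndufb2, chr6:39592315-39592564, plus strand: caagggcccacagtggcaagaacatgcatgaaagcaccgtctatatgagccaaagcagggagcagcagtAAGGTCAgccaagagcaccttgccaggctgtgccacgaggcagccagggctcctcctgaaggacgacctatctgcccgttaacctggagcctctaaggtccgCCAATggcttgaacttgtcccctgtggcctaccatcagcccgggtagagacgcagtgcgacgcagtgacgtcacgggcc
Cox5a, chr9:57520982-57521231, plus strand: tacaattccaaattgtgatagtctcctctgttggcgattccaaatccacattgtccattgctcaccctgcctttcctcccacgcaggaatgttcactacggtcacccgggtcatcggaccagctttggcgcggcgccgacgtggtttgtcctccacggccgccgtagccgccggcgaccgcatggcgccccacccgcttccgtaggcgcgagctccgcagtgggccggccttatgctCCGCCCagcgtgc
Cox6a1, chr5:115348982-115349129, minus strand: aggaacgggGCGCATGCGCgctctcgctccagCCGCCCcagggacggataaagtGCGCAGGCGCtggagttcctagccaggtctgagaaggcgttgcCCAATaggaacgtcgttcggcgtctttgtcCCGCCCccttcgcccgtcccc
Atp5g3, chr2:73911327-73911576, minus strand: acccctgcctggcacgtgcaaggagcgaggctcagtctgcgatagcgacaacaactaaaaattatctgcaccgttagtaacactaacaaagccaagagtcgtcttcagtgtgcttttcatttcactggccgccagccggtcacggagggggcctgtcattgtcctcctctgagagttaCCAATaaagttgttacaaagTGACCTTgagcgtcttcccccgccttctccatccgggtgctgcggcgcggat

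Levels of the complexes were compared first as geometric means of their tested members in each library, in normalized counts and as mean ± SD of 3 libraries. Complex I stood at 946 ± 47.0 in WT untreated libraries, 1099.6 ± 64.9 with IFN-gamma and 1201 ± 172 with IL-4. In KO libraries the values were 993 ± 9.64, 1088 ± 108 and 1317 ± 228 in the same order. Each complex had its lowest mean in the untreated groups and its highest in KO libraries with IL-4. Untreated libraries were tight, with complex III between 1796 and 1802 in the 3 KO libraries, whereas IL-4 libraries were spread, with complex III between 2092 to 2934 in KO and 1961 to 2444 in WT. WT and KO ranges overlapped under both cytokines for all 5 complexes. Without treatment they overlapped for complexes III and V, while every KO library was above every WT library for complexes I, II and IV. The lowest KO and highest WT values there were 983.1 and 982.9 for complex I, 4175 and 4087 for complex II, and 880.0 and 878.0 for complex IV.

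**Figure D1:**
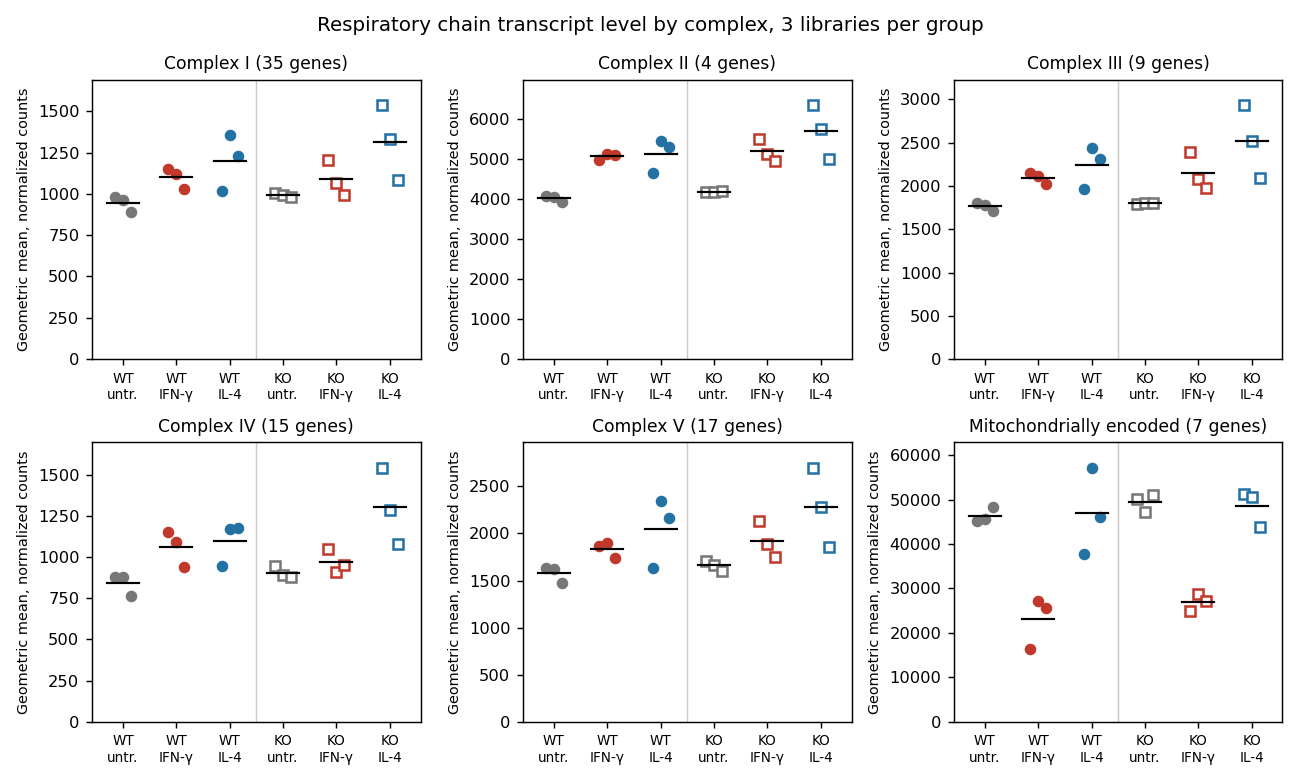
Geometric mean of normalized counts (y axes, from 0) over the tested members of each complex and over 7 mitochondrially encoded genes, with 1 point per library, filled circles for WT, open squares for KO, and a bar at the mean of 3 libraries. Group means of all 5 complexes are lowest without treatment, although some single libraries overlap between treatments. IL-4 libraries are the most spread, and the means of the mitochondrially encoded genes are lowest with IFN-gamma.

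IFN-gamma was compared with no treatment to see how the chain responds to the inflammatory cytokine. In WT cells 36 of 80 members were higher and 3 lower, and the median change of the members on the log2 scale was 0.23 beside -0.011 for all genes tested. A member was called at an adjusted p under 0.05 in limma, fitted over all 14288 genes and adjusted by Benjamini and Hochberg. Among all genes 62.4% were called, 31.4% higher and 31.1% lower. In KO cells 28 members were higher and 4 lower with a median of 0.16, where 55.8% of all genes were called, 28.3% higher and 27.5% lower. All 28 members that rose in KO cells had also risen in WT cells, which is 77.8% of the WT list. The balance depended on the scaling. With libraries scaled to equal totals, the median of all genes moved to -0.31 in WT and -0.36 in KO, and 15 members were higher and 18 lower in WT, 8 higher and 31 lower in KO. Of the members named in the following paragraphs, Ndufs7, Ndufs8, Ndufa11, Uqcr10, Cox5b, Cox7a2, Atp5d and Atp5o did not pass under equal totals in either genotype, nor Cox6b1 in WT, nor Ndufb9, Uqcrq, Uqcrc2, Cox6a1, Cox7b and Cox8a in KO. The KO median was 0.11 without IFN-gamma replicate 1.

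Complex I responded unevenly to IFN-gamma. In WT cells 14 of its 35 tested members rose and 1 fell, and in KO cells 9 rose and 2 fell. The 7 catalytic core subunits, most of which bind flavin or iron-sulfur clusters or form the quinone site, included 5 that rose in WT and 3 in KO. Of 10 Ndufb subunits, accessory proteins of the membrane arm, 1 rose and 1 fell in WT, and 1 rose and 2 fell in KO. The division into core and Ndufb subunits was made after their values had been seen.

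Ndufs4 (ENSMUSG00000021764.8, chr13:114287795-114388258 in GRCm38), an accessory subunit needed for a stable NADH-binding module, had the largest rise in complex I in WT cells. Its normalized counts were 779, 796 and 759 in WT untreated libraries and 1677, 1544 and 1447 with IFN-gamma, with no overlap (log2 change 1.00, SE 0.11, adjusted p = 4.40e-07). In KO libraries they went from 789, 785 and 824 to 1276, 1229.5 and 1122 (log2 change 0.60, SE 0.11, adjusted p = 1.88e-04). The KO libraries with IFN-gamma lay below all 3 WT libraries with IFN-gamma.

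Ndufs3, a core subunit of the matrix arm, read 419, 449 and 371 in WT untreated libraries and 861, 681 and 729.9 with IFN-gamma (log2 change 0.87, SE 0.12, adjusted p = 8.24e-06). It read 464, 429.6 and 416 and 821, 727 and 757 in KO libraries (log2 change 0.81, SE 0.12, adjusted p = 2.14e-05). The treated and untreated ranges were apart in both genotypes. Ndufs8, an iron-sulfur subunit, rose by 0.51 in WT and 0.37 in KO on the log2 scale. Ndufs7, which lies at the quinone site, rose by 0.43 and 0.43. Ndufa11, a membrane arm subunit, rose by 0.62 and 0.67, and Ndufb9 by 0.64 and 0.42. Ndufs1, the largest iron-sulfur subunit, and Ndufv1, which carries the flavin that accepts electrons from NADH, did not pass, at -0.032 and 0.014 in WT.

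Ndufb11 (ENSMUSG00000031059.9, chrX:20615326-20617619), a single-pass membrane arm subunit, moved the other way. Its counts were 1569, 1567 and 1429.9 in WT untreated libraries and 1175, 1044 and 919.8 with IFN-gamma (log2 change -0.55, SE 0.12, adjusted p = 9.96e-04). In KO libraries they were 1403, 1459 and 1512 and 1195, 982 and 1001 (log2 change -0.47, SE 0.12, adjusted p = 0.00406). Every treated library was below every untreated library of its genotype. The gene shares 117 exon bases with Rbm10 on the opposite strand, which averaged 773 normalized counts. Ndufb4 fell in KO cells (log2 change -0.43, SE 0.18, adjusted p = 0.046, with an animal block adjusted p = 0.0537) and did not pass in WT cells, where its change was -0.14.

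Complex II showed a split between its subunits. Sdhb, the iron-sulfur subunit, read 2975, 3156 and 2991 in WT untreated libraries and 5069.6, 4845 and 4987 with IFN-gamma (log2 change 0.71, SE 0.084, adjusted p = 9.34e-07), and it rose in KO cells too (log2 change 0.58, SE 0.084, adjusted p = 1.12e-05). Sdhd, one of the membrane anchors, read 3394, 3217 and 3215 and 5149, 4982 and 4813 in WT libraries (log2 change 0.60, SE 0.078, adjusted p = 2.44e-06) and rose by 0.65 in KO. Sdha, the flavoprotein that oxidises succinate, and Sdhc, the other anchor, did not pass in either genotype, with changes of 0.053 and -0.023 in WT and 0.084 and -0.074 in KO. For Sdha the WT values were 7157, 6846 and 6649 without and 6916, 7248 and 7263 with IFN-gamma, which overlapped.

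In complex III, 4 of 9 members rose in each genotype and 1 fell in WT. Cyc1, the cytochrome c1 subunit, read 1879, 1953 and 1939 in WT untreated libraries and 3121, 3042 and 3008 with IFN-gamma (log2 change 0.67, SE 0.093, adjusted p = 6.33e-06), and rose by 0.64 in KO. Uqcrq, a small subunit that contacts cytochrome b, rose by 0.72 and 0.54, Uqcr10 by 0.52 and 0.60, and Uqcrc2, a core protein of the matrix side, by 0.50 and 0.38. Uqcr11, the smallest accessory subunit, read 845, 899 and 764 in WT untreated libraries and 565, 611 and 557 with IFN-gamma (log2 change -0.53, SE 0.19, adjusted p = 0.0216), and without WT IFN-gamma replicate 1 or 3 or untreated replicate 1 or 2 the adjusted p in limma was 0.0506 to 0.0718. In KO cells it went from 853, 910.3 and 862 to 984, 670.2 and 624, where the ranges overlapped and the test did not pass (log2 change -0.23). Uqcrfs1, the Rieske iron-sulfur protein, and Uqcrc1, the other core protein, did not pass, at 0.14 and 0.11 in WT.

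Complex IV had 9 risers of 15 tested members in WT and 7 in KO, with 1 and 2 that fell. Cox5a (ENSMUSG00000000088.7, chr9:57521274-57532426), a matrix-side subunit, read 1152, 1125 and 984 in WT untreated libraries and 2124, 2124 and 1737 with IFN-gamma (log2 change 0.87, SE 0.16, adjusted p = 1.32e-04). It read 1176, 1139 and 1111 and 2341, 1934 and 1686 in KO libraries (log2 change 0.79, SE 0.16, adjusted p = 4.34e-04). Treated and untreated ranges were apart in both genotypes. Cox6a1 rose by 0.89 in WT and 0.61 in KO, Cox7b by 0.77 and 0.42, Cox8a by 0.73 and 0.68, and Cox5b, which holds a zinc ion, by 0.54 and 0.57. Cox7a2 rose by 0.39 and 0.47, and Cox6b1 rose in WT by 0.45 (with TMM factors adjusted p = 0.0529) and did not pass in KO at 0.31. Cox4i1, at the highest level per length of all members, did not pass in either genotype, at 0.16 and 0.12.

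Cox6a2 (ENSMUSG00000030785.8, chr7:128205435-128206387) had the largest rise of any member although its level was low. Its counts were 34.1, 22.6 and 20.4 in WT untreated libraries, 109, 72.1 and 87.3 under IFN-gamma, then 153, 85.2 and 60.0 under IL-4. In KO libraries they were 49.8, 38.1 and 76.7, 137, 144 and 151 and 184, 179 and 252 in the same order. Within each treatment every KO library was above every WT library, and within each genotype every treated library was above every untreated one. With IFN-gamma the rise was 1.78 (SE 0.31, adjusted p = 7.24e-05) in WT and 1.43 (SE 0.31, adjusted p = 6.79e-04) in KO. It shares 70 exon bases with Itgad on the opposite strand, which averaged 2.95 normalized counts.

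Cox6b2 fell with IFN-gamma in both genotypes at counts close to the limit of detection. It read 11.7, 17.1 and 12.5 in WT untreated libraries, 8.84, 5.64 and 1.18 with IFN-gamma, 9.05, 9.53 and 7.35 in KO untreated libraries and 0, 0 and 1.74 in KO libraries with IFN-gamma. Adjusted p was 0.0274 in WT and 3.58e-04 in KO, and in WT the call was lost with DESeq2 (adjusted p = 0.0524) and without IFN-gamma replicate 3 (adjusted p in limma 0.178). No fold is given at this depth. Ndufa4, a complex IV subunit once assigned to complex I, read 1825, 1647 and 1658 in KO untreated libraries and 1344, 1217 and 1078 with IFN-gamma (log2 change -0.50, SE 0.16, adjusted p = 0.0126, and without KO IFN-gamma replicate 3 adjusted p = 0.0597). In WT cells it read 1559.8, 1789.8 and 1583 and 1287, 1546 and 1407, ranges that did not overlap, and the test did not pass (log2 change -0.22). Cox7a2l, a factor that joins complexes III and IV, rose in WT by 0.26 (-0.035 under equal library totals, and with TMM factors adjusted p = 0.0798) and did not pass in KO at -0.076.

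In complex V, 7 of 17 members rose with IFN-gamma in WT and 6 in KO, and none fell. Of the 5 subunits of the F1 head, 3 rose in each genotype, and of the 4 peripheral stalk subunits 3 rose in WT and 2 in KO. None of the 3 c subunit genes passed. Atp5b (ENSMUSG00000025393.12, chr10:128083273-128090391) read 15934, 16221 and 15308 in WT untreated libraries and 22623, 26216 and 26289 with IFN-gamma (log2 change 0.66, SE 0.092, adjusted p = 6.27e-06), and 17283, 16973 and 16319 and 29039.8, 28044 and 24616 in KO libraries (log2 change 0.69, SE 0.092, adjusted p = 4.63e-06). Its treated and untreated ranges were apart in both genotypes. Atp5a1, the alpha subunit, rose by 0.22 in WT and 0.31 in KO (under equal library totals -0.078 and -0.043, and in WT lost with TMM factors, adjusted p = 0.135, and without IFN-gamma replicate 2 or 3 or untreated replicate 1 or 3, adjusted p in limma 0.0655 to 0.105), Atp5d, of the central stalk, by 0.50 and 0.41, and Atp5o, of the peripheral stalk, by 0.59 and 0.47.

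**Figure D2:**
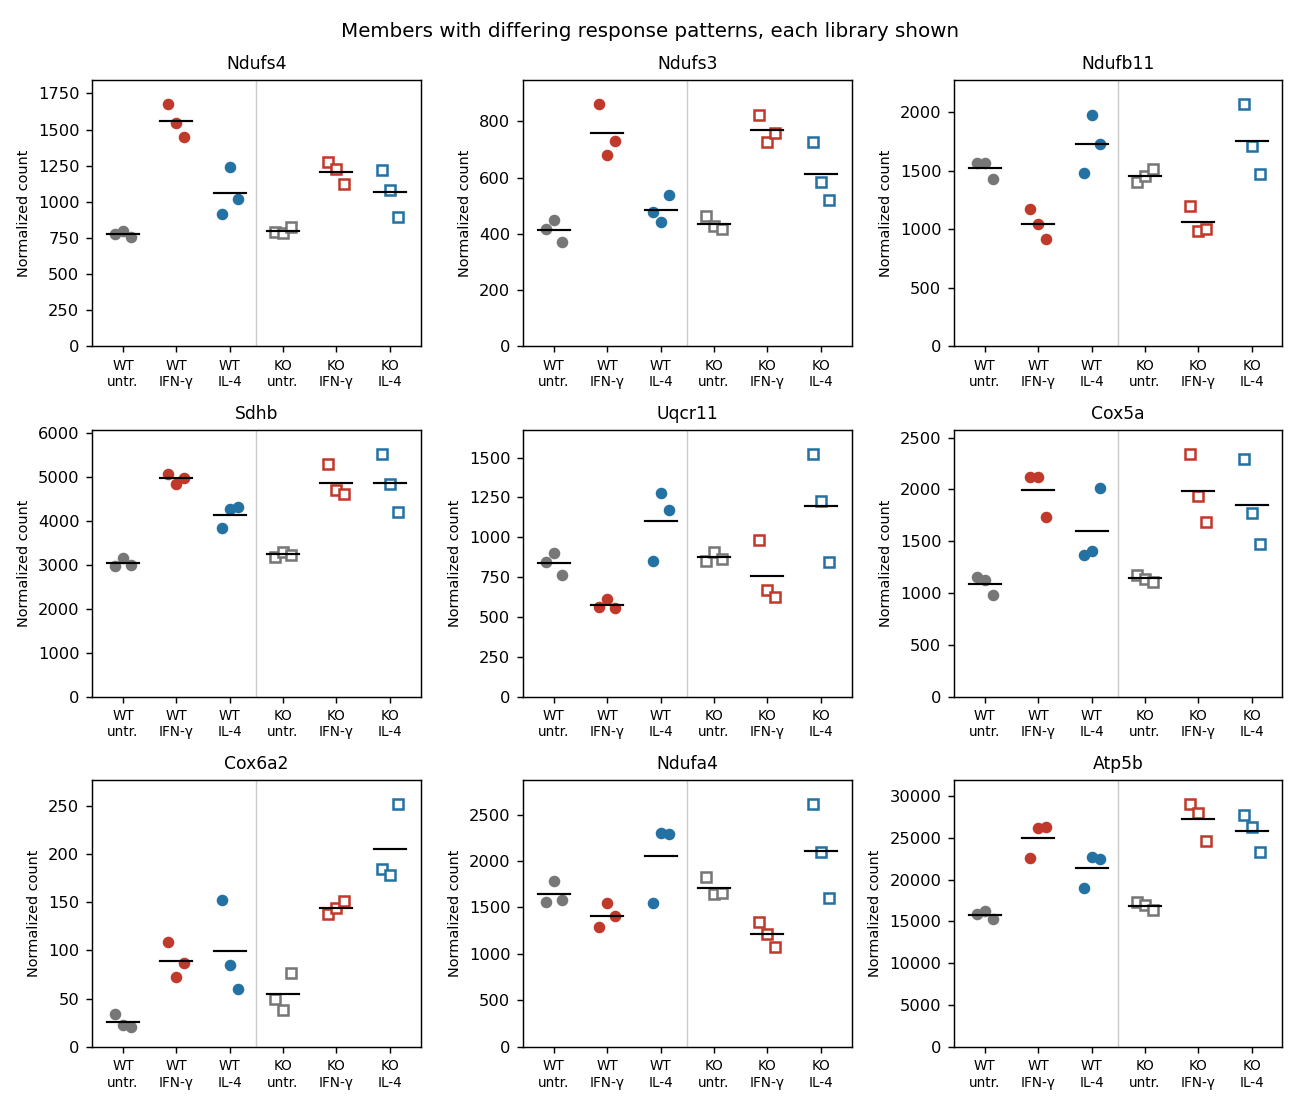
Normalized counts (y axes, from 0) of 9 members in each of 18 libraries, with filled circles for WT, open squares for KO and a bar at the mean of 3 libraries. Ndufs4, Ndufs3, Sdhb, Cox5a, Cox6a2 and Atp5b are higher with IFN-gamma than untreated, Ndufb11 is lower, and Uqcr11 and Ndufa4 are lower with IFN-gamma than with IL-4.

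IL-4 was compared with no treatment in the same way. In WT cells 42 of 80 members rose and none fell, with a median log2 change of 0.37 beside -0.012 for all genes tested, of which 30.3% were called, 16.3% higher and 14% lower. In KO cells 55 rose and none fell, with a median of 0.44, where 30.2% of all genes were called, 15.8% higher and 14.5% lower. Both genotypes shared 40 of these members, 95.2% of the WT list and 72.7% of the KO list. In each genotype 76 of the 80 changes were above 0. Under equal library totals the median of all genes moved to -0.17 in WT and -0.14 in KO, and 16 members were higher and 2 lower in WT, 35 higher and 1 lower in KO.

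The rise with IL-4 ran through all 5 complexes. In WT and KO cells it included 17 and 22 of 35 members of complex I, 4 and 4 of 4 of complex II, 4 and 7 of 9 of complex III, 9 and 10 of 15 of complex IV, and 8 and 12 of 17 of complex V. Medians by complex lay between 0.33 and 0.45 in WT and between 0.40 and 0.50 in KO. The 7 core subunits of complex I included 6 that rose in each genotype.

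Ndufs8, whose upstream stretch is shown above, had the largest rise in complex I. It read 1001, 1052 and 1026 in WT untreated libraries and 1486, 1875 and 1695 with IL-4 (log2 change 0.71, SE 0.10, adjusted p = 4.69e-05). In KO libraries it read 1167, 1153 and 1195 and 2324, 1976 and 1704 (log2 change 0.76, SE 0.10, adjusted p = 2.04e-05). Untreated and IL-4 ranges were apart in both genotypes. Ndufa13, a membrane arm subunit also known as GRIM-19, rose by 0.68 in WT and 0.72 in KO. Ndufv1 rose by 0.31 and 0.39, and Ndufs1 by 0.17 and 0.20. The Ndufs1 call in WT was lost in limma with any 1 of the 6 libraries left out (adjusted p = 0.0554 to 0.121), with no filter (0.0728), with only the libraries compared (0.0556), in edgeR (0.0599) and under equal totals (0.932), and in KO without IL-4 replicate 2 or untreated replicate 3 (0.0565 and 0.063) and under equal totals (0.506). The Ndufv1 call in WT was lost under equal totals (0.133) and without untreated replicate 3 (0.05).

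All 4 complex II genes passed as higher with IL-4 in both genotypes with the authors' size factors. Sdha read 7976, 8656 and 8653 in WT libraries with IL-4 (log2 change 0.29, SE 0.062, adjusted p = 0.00158) and 9510.0, 9293 and 8591 in KO (log2 change 0.39, SE 0.062, adjusted p = 9.62e-05), all above the untreated libraries of the same genotype. Sdhb rose by 0.44 and 0.58, Sdhc by 0.36 and 0.32, and Sdhd by 0.31 and 0.47. Under equal library totals Sdha (adjusted p = 0.0987), Sdhc (0.167) and Sdhd (0.119) no longer passed in limma in WT, nor Sdhc in KO (0.226). The Sdhc call was also lost in limma without any 1 of 5 WT libraries (all but IL-4 replicate 1, adjusted p = 0.0554 to 0.12) or 5 KO libraries (all but IL-4 replicate 3, adjusted p = 0.0904 to 0.248), with only the libraries compared (0.0646 in WT, 0.0654 in KO) and, in KO, with no filter (0.0575). In complex III, Uqcrq rose by 0.60 and 0.59, Cyc1 by 0.46 and 0.58, and Uqcrc1 by 0.44 and 0.60. Uqcrfs1 rose in KO by 0.36 and did not pass in WT at 0.15.

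Among complex IV members, Cox6a2 had the largest rise with IL-4, by 1.84 in WT and 1.92 in KO. Cox6a1 rose by 0.58 and 0.53, Cox5a by 0.54 and 0.67, Cox6b1 by 0.47 and 0.45, Cox7a2 by 0.36 and 0.50, and Cox8a by 0.52 and 0.58. Several of these calls depended on single libraries or settings. Cox6b1 in KO was lost in limma without any 1 library except IL-4 replicate 3 (adjusted p = 0.0941 to 0.247), with no filter (0.0532), with only the libraries compared (0.0637) and under equal totals (0.136), and in WT without IL-4 replicate 2 or 3 or untreated replicate 1 or 3 (0.0755 to 0.182), with only the libraries compared (0.087) and under equal totals (0.132). Cox7a2 in WT was lost without any 1 library except IL-4 replicate 1 (0.0964 to 0.193), with a pseudocount of 0.5 (0.0504), with no filter (0.059), in edgeR (0.0578) and under equal totals (0.223), and in KO without IL-4 replicate 1 (0.0542). Cox5a and Cox8a in WT were lost without IL-4 replicate 3 or untreated replicate 3 and under equal totals (0.069 to 0.11), and Cox8a in KO without IL-4 replicate 1 (0.0779). Cox4i1 passed in KO at 0.39, a call lost without any 1 library except IL-4 replicate 3 (0.0894 to 0.232), with no filter (0.0505), with only the libraries compared (0.0606) and under equal totals (0.152), and did not pass in WT at 0.32. Ndufa4 and Cox7a2l did not pass in either genotype.

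In complex V, Atp5g3 read 4081, 4016 and 3599 in WT untreated libraries and 4293, 6587 and 5867 with IL-4 (log2 change 0.50, SE 0.15, adjusted p = 0.0184), and 4335, 4318 and 4011 and 8389, 6763 and 5385 in KO libraries (log2 change 0.67, SE 0.15, adjusted p = 0.00222). Untreated and IL-4 ranges were apart in both genotypes. In WT the adjusted p in limma was 0.0635 to 0.0969 without IL-4 replicate 2 or 3 or untreated replicate 3. Atp5g1 rose by 0.51 and 0.55, calls lost in limma in WT without IL-4 replicate 2 or 3 or untreated replicate 3 (adjusted p = 0.0508 to 0.0646) and under equal totals (0.0639), and in KO without IL-4 replicate 1 (0.0646). Atp5g2 did not pass, at -0.083 and -0.077. Atp5o rose by 0.67 and 0.65, Atp5b by 0.43 and 0.61, and Atp5a1 by 0.41 and 0.52.

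**Figure D3:**
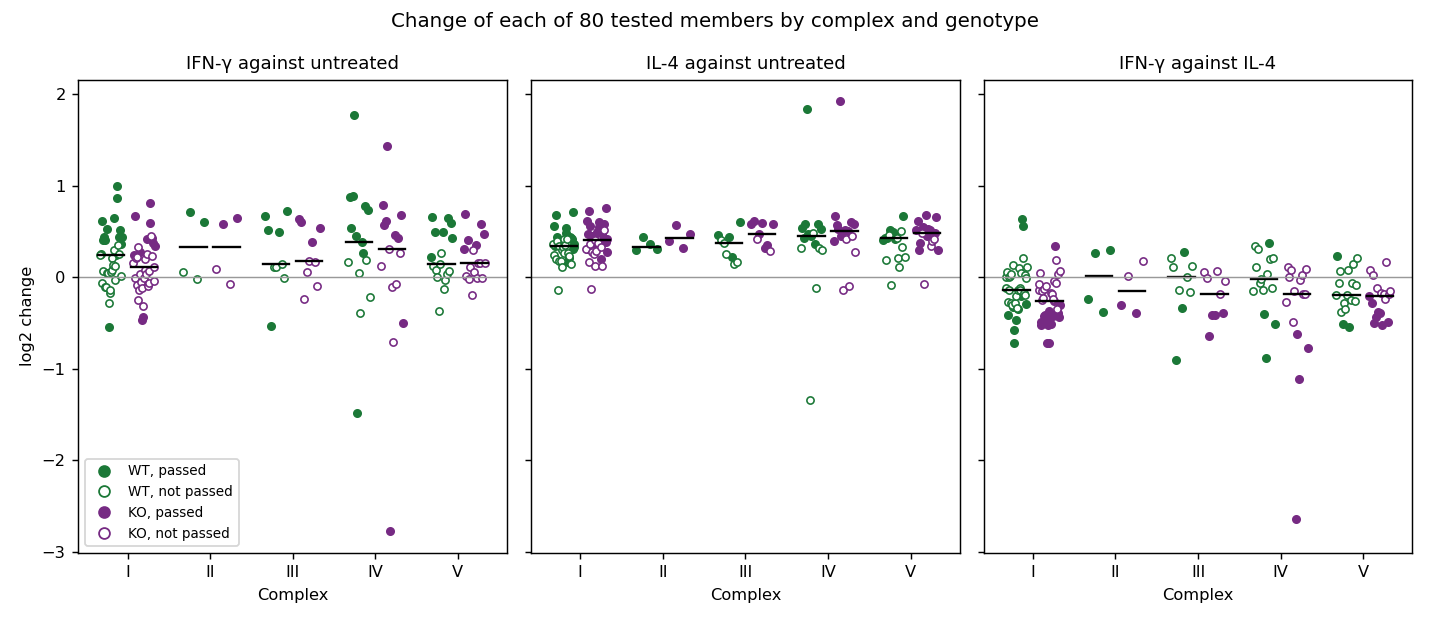
Log2 change (y axis) of each of 80 tested members, by complex, for both cytokines against no treatment and for IFN-gamma against IL-4. WT is green and KO purple, filled points passed the test, open points did not, and bars mark medians. With IL-4, 76 of 80 members lie above 0 in each genotype, whereas with IFN-gamma 62 do in WT and 55 in KO.

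The cytokines were then set against each other directly. With IFN-gamma relative to IL-4, 7 of 80 members were higher and 17 lower in WT (60.5% of all genes called, 30.8% higher and 29.7% lower), and 1 was higher and 35 lower in KO (55% called, 27.5% higher and 27.4% lower). Median changes were -0.12 in WT and -0.23 in KO. In WT the median was -0.0073 without IL-4 replicate 2, -0.063 without IFN-gamma replicate 3, -0.066 without IL-4 replicate 3, -0.24 without IL-4 replicate 1 and -0.20 with TMM factors. In KO it was -0.096 without IL-4 replicate 1, -0.14 without IFN-gamma replicate 3 and -0.36 without IL-4 replicate 3. All 17 members lower in WT were among the 35 lower in KO, 48.6% of that list. Equal library totals gave 3 higher and 31 lower in WT, 0 higher and 52 lower in KO, with medians over all genes of -0.13 and -0.22. In KO the count of members that passed was 19 without IFN-gamma replicate 3 and 17 without IL-4 replicate 1, in place of 36.

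Of the 10 Ndufb subunits, a set chosen after its values were seen, 5 were lower in WT and 8 in KO, beside 17 and 35 of all 80 members. Ndufb11 was lower, at -0.72 in WT and -0.72 in KO on the log2 scale. Ndufb4 was lower, at -0.47 and -0.71, and its WT call was lost in limma without IFN-gamma replicate 1 or 2 or IL-4 replicate 2 (adjusted p = 0.0645 to 0.2). Ndufb2 read 204, 203 and 213 in WT libraries under IFN-gamma and 226, 449 and 291 under IL-4 (log2 change -0.58, SE 0.17, adjusted p = 0.00854), and 264, 268 and 236 and 402, 385 and 321 in KO (log2 change -0.52, SE 0.17, adjusted p = 0.0171). Its ranges under the cytokines were apart in both genotypes. Without WT IL-4 replicate 2 the adjusted p in limma was 0.0538 in WT, and without KO IFN-gamma replicate 3 or IL-4 replicate 1 or 2 it was 0.054 to 0.0647 in KO. The catalytic core was divided, with Ndufv1 lower, at -0.30 and -0.43, Ndufs1 lower, at -0.20 and -0.26, and Ndufs3 higher by 0.64 and 0.34, where the KO call was lost without IFN-gamma replicate 1 or 3 or IL-4 replicate 2 or 3 (adjusted p in limma 0.0505 to 0.134). Ndufs4 was higher with IFN-gamma in WT by 0.56 and did not pass in KO at 0.19.

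The complex II genes divided in WT cells. Sdha was lower with IFN-gamma than with IL-4, at -0.24, and Sdhc at -0.38, whereas Sdhb was higher by 0.26 (with TMM factors adjusted p = 0.0787) and Sdhd by 0.30. Under equal library totals neither Sdhb (adjusted p in limma 0.173) nor Sdhd (0.0588) passed in WT. The WT call was also lost in limma for Sdhb without IL-4 replicate 1 (0.0553) and for Sdhc without IL-4 replicate 2 (0.0538). In KO cells Sdha and Sdhc were lower, at -0.31 and -0.40, and Sdhb and Sdhd did not pass at 0.0096 and 0.18. The Sdhc call in KO was lost in limma without IL-4 replicate 1 (0.0605). Uqcr11 of complex III read 853, 1275 and 1171 in WT libraries with IL-4 and was lower with IFN-gamma, at -0.91 in WT and -0.65 in KO. Uqcrc1 was lower, at -0.34 and -0.41, and Uqcrc2 was higher in WT by 0.28.

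In complex IV, Ndufa4 was lower with IFN-gamma than with IL-4, at -0.52 in WT and -0.77 in KO. Cox7a1, at 19.6, 24.8 and 21.2 under IFN-gamma and 41.5, 39.3 and 41.9 under IL-4 in WT libraries, was lower, at -0.88 and -1.12, calls lost in limma in WT without IFN-gamma replicate 1 or 3 or IL-4 replicate 1 or 3 (adjusted p = 0.0584 to 0.0788) and in KO without IFN-gamma replicate 2 or IL-4 replicate 1 (0.0569 and 0.0595). Cox7a2l was higher in WT by 0.38. Cox6b2 was lower in KO, where IL-4 libraries read 6.05, 7.31 and 10.3. In complex V, Atp5g1 was lower, at -0.51 and -0.44 and Atp5j2 at -0.55 and -0.53. In KO both were lost in limma without IFN-gamma replicate 2 or 3 or IL-4 replicate 1 or 2 (adjusted p = 0.0576 to 0.152), and Atp5j2 in WT without IFN-gamma replicate 1 or IL-4 replicate 2 or 3 (0.0562 to 0.114), while Atp5b was higher in WT by 0.23, a call lost with TMM factors (adjusted p = 0.198) and without WT IFN-gamma replicate 2 or 3 or IL-4 replicate 1 (adjusted p in limma 0.128 to 0.193).

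**Figure D4:**
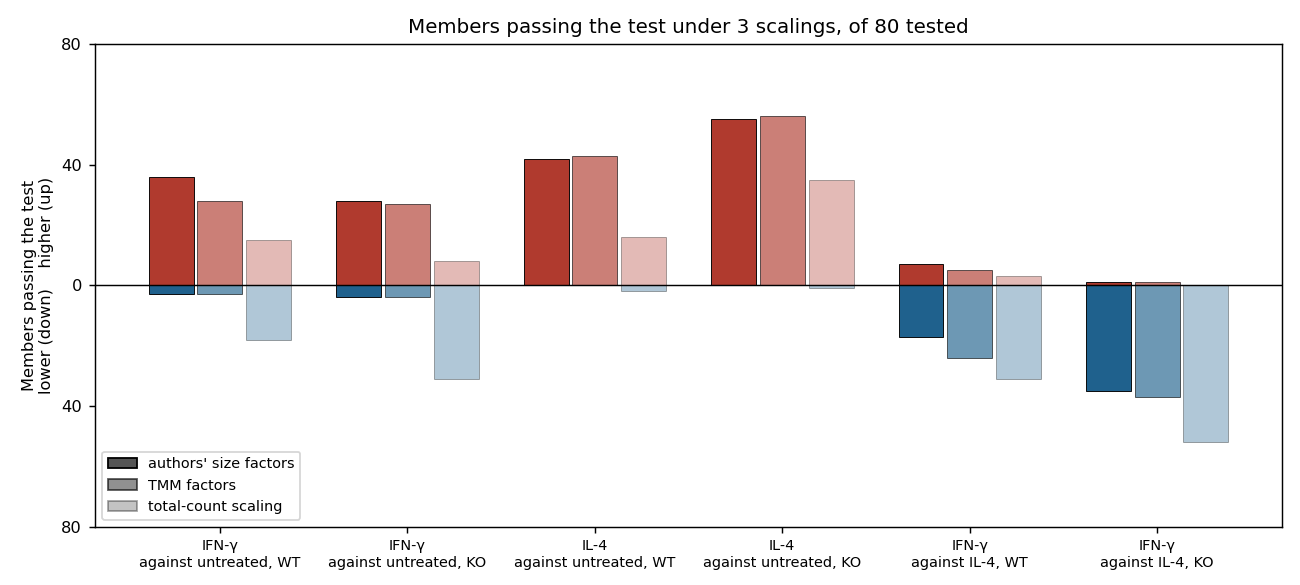
Number of members (y axis, of 80) that passed as higher (red, up) or lower (blue, down) in 6 treatment comparisons, with the authors' size factors, TMM factors and scaling to equal library totals. With IFN-gamma the balance of higher and lower members turns under equal totals, with IL-4 most passing members stay higher, and IFN-gamma against IL-4 keeps more lower than higher members under all 3 scalings.

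KO and WT cells were compared within each treatment to see how the members differed where Ldha was knocked out. Without treatment no member passed in limma, where 1.98% of all genes were called (1.46% higher, 0.525% lower), and 2 members had an unadjusted p under 0.05. DESeq2 called 1 member and edgeR 0. The median log2 difference was 0.073 and 62 of 80 differences were above 0, but the median was 0.023 without WT replicate 3 and -0.10 with the stromal marker sum as a covariate. The smallest adjusted p were those of Cox6a2 (log2 change 1.04, SE 0.31, adjusted p = 0.106), Ndufa9, a subunit near the quinone site (log2 change 0.23, SE 0.088, adjusted p = 0.256), and Ndufs1 (log2 change 0.12, SE 0.059, adjusted p = 0.429), none of which passed. The complex II genes differed by 0.016 for Sdha, 0.092 for Sdhb, 0.17 for Sdhc and -0.039 for Sdhd.

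Under IFN-gamma 4 members were lower in KO and none higher, with 27.9% of all genes called, 14.3% higher and 13.6% lower. In the same libraries neutrophil markers summed to 31.2 to 67.0 in KO and 2.25 to 4.72 in WT, and 4 of 6 osteoclast markers were higher in KO, and their part in these differences was not tested. Ndufs4 was lower (log2 change -0.36, SE 0.11, adjusted p = 0.0215). Ndufa6, a subunit of the matrix arm, read 2062, 1776 and 1520.0 in WT and 1495, 1290.2 and 1334 in KO libraries (log2 change -0.37, SE 0.12, adjusted p = 0.0331). Cox7a2l read 6946, 5407 and 5496 and 4532, 4561 and 4583 (log2 change -0.37, SE 0.10, adjusted p = 0.00809). These 3 genes showed no overlap between genotypes under IFN-gamma. In limma with 1 library left out, Ndufs4 no longer passed without KO replicate 3 (adjusted p = 0.0831) or WT replicate 1 (adjusted p = 0.0841), and Ndufa6 without KO replicate 2 or 3 or WT replicate 1 or 2 (adjusted p = 0.0697 to 0.16). The count of 4 became 2 without KO replicate 2, KO replicate 3 or WT replicate 2, and 1 without WT replicate 1. Cox6b2, the fourth, was at or near 0 in KO libraries (adjusted p = 0.0168), and its ranges overlapped. Its call was lost in limma with a pseudocount of 5 (adjusted p = 0.0512), with only the libraries compared (0.0907) and without KO replicate 1 or 2 or WT replicate 1 or 2 (0.0563 to 0.0935), and Ndufa6 with only the libraries compared (0.0659). The median over members was -0.0087, between -0.089 and 0.055 with 1 library left out and -0.15 with the stromal marker covariate, and the complex II genes lay between -0.031 for Sdhb and 0.12 for Sdhc.

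Under IL-4 only Cox6a2 passed, higher in KO (log2 change 1.13, SE 0.31, adjusted p = 0.0363), where 6.59% of all genes were called, 3.46% higher and 3.13% lower. It no longer passed in limma without KO replicate 1, 2 or 3 or WT replicate 2 or 3 (adjusted p = 0.0621 to 0.13). The complex II genes did not pass, at 0.12 for Sdha, 0.22 for Sdhb, 0.13 for Sdhc and 0.12 for Sdhd. The median over members was 0.14, and that of all genes was 0.011. It was 0.17 for 946 genes shorter than 1000 exon bases that are not members and -0.023 for 82 cytosolic ribosomal protein genes. Single libraries moved the median over members, to 0.017 without KO replicate 1, 0.029 without WT replicate 1, 0.23 without WT replicate 2 and 0.29 without KO replicate 3. It was 0.025 with the stromal marker covariate. The count of 1 member became 8 without KO replicate 3, 3 without WT replicate 2, and 0 with only the libraries compared. KO and WT ranges under IL-4 overlapped for 77 of 80 members. Under IFN-gamma they overlapped for 66, with 5 apart as higher in KO and 9 as lower. Without treatment they overlapped for 55, with 22 apart as higher in KO and 3 as lower. The share of all genes with ranges apart was not computed, so these counts do not show whether members differed more than other genes. Stromal marker sums averaged higher in KO in all 3 treatments, with overlapping ranges, and 3 of 11 tested markers (Col5a1, Igfbp7 and Pdgfrb) passed as higher in KO with IFN-gamma. With that sum as a covariate 1 member passed without treatment, 1 was higher and 7 lower under IFN-gamma, and 1 was higher under IL-4.

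The genotype difference of each cytokine response was tested directly as an interaction. None of 80 members passed for IFN-gamma (9.15% of all genes called, 4.3% higher and 4.84% lower, 2 members with an unadjusted p under 0.05) or for IL-4 (0.007% of all genes called, 0 members with an unadjusted p under 0.05) in limma. For IFN-gamma the smallest adjusted p were those of Ndufs4 (log2 change -0.40, SE 0.16, adjusted p = 0.127), Cox7a2l (log2 change -0.34, SE 0.14, adjusted p = 0.139) and Atp5pb, a peripheral stalk subunit (log2 change -0.28, SE 0.14, adjusted p = 0.235). For IL-4 they were those of Uqcrfs1 (log2 change 0.21, SE 0.12, adjusted p = 0.955), Cox6b2 (adjusted p = 0.978) and Sdhd (log2 change 0.16, SE 0.11, adjusted p = 0.986). The complex II genes lay between -0.12 for Sdhb and 0.043 for Sdhd in the IFN-gamma interaction and between -0.039 for Sdhc and 0.16 for Sdhd in the IL-4 interaction. In limma without an animal block, more members passed with IL-4 in KO (55) than in WT (42), but no single member had a passing interaction. With an animal block, which pairs libraries of 1 animal, 55 passed in WT and 59 in KO.

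Members deviated together from library to library, most of all under IL-4. In KO IL-4 replicate 1 the median member was 0.26 above its group mean on the log2 scale and 76 of 80 were above it, whereas in replicate 3 the median was -0.28 and 3 were above. In WT IL-4 replicate 1 the median was -0.24 with 3 members above, and in replicate 2, the shallowest library, 0.19 with 66 above. Genes for 82 cytosolic ribosomal proteins deviated alike, by 0.24, -0.28, -0.30 and 0.24 in these 4 libraries. The 946 short genes that are not members deviated by 0.11, -0.12, -0.047 and 0.068. The median over all genes stayed within 0.030 of its group mean in all 18 libraries. Their part in the IL-4 counts was not tested. Without KO IL-4 replicate 1 the count of members that passed with IL-4 in KO was 29 in place of 55, and without replicate 3 it was 67. In WT it was 60 without IL-4 replicate 1, 24 without IL-4 replicate 2, 22 without IL-4 replicate 3 and 21 without untreated replicate 3, in place of 42.

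Ribosomal protein genes and members parted between treatments. The median change of the ribosomal genes was -0.50 with IFN-gamma and 0.093 with IL-4 in WT, and -0.48 and 0.12 in KO. Short genes that are not members had medians of -0.056 and -0.16 in WT and -0.044 and 0.048 in KO in the same order.

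**Figure D5:**
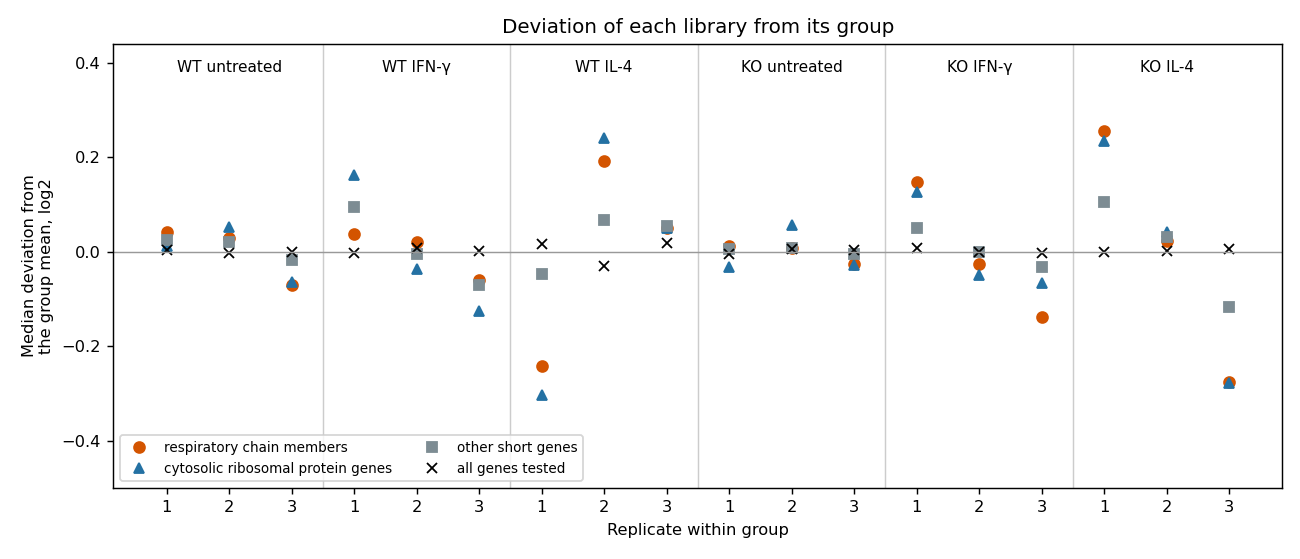
Median deviation of each library from its group mean (y axis, log2) for respiratory chain members, cytosolic ribosomal protein genes, other genes shorter than 1000 exon bases and all genes tested, with 1 column per library. Members and ribosomal protein genes move together in IL-4 libraries, up to 0.26 above and 0.30 below the group mean, while the median of all genes stays near 0.

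With the authors' size factors, subunits encoded by mitochondrial DNA went another way than their nuclear partners. All 7 tested genes fell with IFN-gamma in both genotypes, with medians of -1.03 in WT and -0.81 in KO, and none passed with IL-4 in limma. Under equal library totals the IFN-gamma median over the nuclear members was also below 0, at -0.069 in WT and -0.19 in KO. The geometric mean of the 7 genes was 16342 in WT IFN-gamma replicate 1 against 27278 and 25530 in replicates 2 and 3. mt-Nd1, a membrane core subunit of complex I, fell by 1.11 (SE 0.13, adjusted p = 6.21e-07) in WT and by 1.24 (SE 0.13, adjusted p = 1.92e-07) in KO, and mt-Nd2 by 1.28 and 1.13. Mitochondrially encoded reads were 1.95% to 2.17% of a library without treatment, 0.952% to 1.38% with IFN-gamma and 1.50% to 1.92% with IL-4. The libraries were made from poly(A) RNA.

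Subunits that the symbol rule leaves out included the largest change with IFN-gamma among all members and respiratory lists examined. AA467197 (Nmes1), a paralog of Ndufa4, averaged 35.6 ± 8.02 normalized counts (SD, n = 3) in WT untreated libraries, 1598 ± 335 with IFN-gamma and 157 ± 55.5 with IL-4. In KO libraries it averaged 80.6 ± 10.9, 3315 ± 346 and 409 ± 33.4. It rose with IFN-gamma by 5.45 in WT and 5.35 in KO on the log2 scale while Ndufa4 fell in KO. It was higher in KO than in WT without treatment by 1.17 (adjusted p = 0.00789), under IFN-gamma by 1.07 (adjusted p = 0.00176) and under IL-4 by 1.44 (adjusted p = 7.55e-04). Of the 6 such subunits tested, 3 rose and 1 fell with IFN-gamma in WT, 4 rose and 1 fell in KO, and 2 in WT and 1 in KO rose with IL-4. Higd1a, which binds complex IV, rose with IFN-gamma by 1.41 and 1.15.

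Mobile electron carriers and entry points were examined as further lists, whose counts here and in the following lists stand beside 62.4% of all genes called with IFN-gamma in WT (31.4% higher, 31.1% lower), 55.8% in KO (28.3% and 27.5%), 30.3% with IL-4 in WT (16.3% and 14%) and 30.2% in KO (15.8% and 14.5%). Calls for both cytokines use the same untreated libraries. Of 14 genes for ubiquinone synthesis and cytochrome c, 6 rose and 3 fell with IFN-gamma in WT and 8 rose and 0 fell in KO, and 3 rose and 1 fell with IL-4 in WT against 7 and 1 in KO. Cycs, the cytochrome c gene, rose with IFN-gamma by 1.71 in WT and 1.42 in KO. Of 7 tested genes for other routes of electrons to ubiquinone, Gpd2, the mitochondrial glycerol-3-phosphate dehydrogenase, rose with IFN-gamma by 2.62 and 1.58 and was lower in KO than in WT under IFN-gamma, at -1.03. Prodh, which oxidises proline, fell by 2.83 and 1.96. Etfa, of the electron-transferring flavoprotein that serves fatty acid oxidation, rose with IL-4 by 0.54 and 0.77, and Etfdh by 0.43 and 0.40.

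Assembly factors were called in both directions with IFN-gamma, where 62.4% of all genes passed in WT and 55.8% in KO. For complex I, 4 of 17 rose and 9 fell with IFN-gamma in WT and 2 rose and 5 fell in KO, and with IL-4 8 rose and 1 fell in WT and 7 rose and 1 fell in KO. Foxred1 rose by 0.99 with IFN-gamma in WT, Tmem186 fell by 1.00 in WT and 0.62 in KO, and Tmem126b rose with IL-4 by 0.69 and 0.67. For complex IV, 9 of 21 rose and 1 fell with IFN-gamma in WT and 6 rose and 1 fell in KO, while 1 and 2 rose with IL-4. Sco1, which delivers copper to complex IV, rose with IFN-gamma by 2.74 and 2.07 and Coa5 by 2.14 and 2.04, whereas Lrpprc, which stabilises mitochondrial mRNAs, fell in WT by 1.26.

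For complex II, 1 of 4 factors rose and 1 fell with IFN-gamma in WT, and 1 rose and 2 fell in KO, while 1 rose with IL-4 in each genotype. Sdhaf2, which inserts flavin into Sdha, rose with IFN-gamma by 0.79 and 0.41, and Sdhaf3 fell by 0.67 and 0.85. For complex III, 1 of 6 rose and 1 fell with IFN-gamma in each genotype and none passed with IL-4 in limma. For complex V, 2 of 4 rose and 1 fell in WT and 1 rose and 1 fell in KO with IFN-gamma, with Atpaf1 lower, at -0.86 and -0.92, and 1 rose with IL-4 in each genotype.

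Regulators of mitochondrial biogenesis included 14 tested genes, read against the same shares of all genes (62.4% and 55.8% with IFN-gamma, 30.3% and 30.2% with IL-4). With IFN-gamma 4 rose and 4 fell in WT and 4 rose and 2 fell in KO, and with IL-4 1 rose and 2 fell in WT and 1 rose and 1 fell in KO. Ppargc1b, a coactivator of respiratory genes, rose with IFN-gamma by 2.56 in WT and 2.59 in KO and with IL-4 by 1.05 and 1.69, and under IL-4 it was higher in KO than in WT by 0.66 (adjusted p = 0.012). Esrra, the estrogen-related receptor alpha, rose with IFN-gamma by 0.85 and 0.87. Polg, the mitochondrial DNA polymerase, fell with IL-4 by 0.64 and 0.81. Of 74 mitochondrial ribosome genes, 21 rose and 14 fell with IFN-gamma in WT and 16 rose and 11 fell in KO, whereas 18 in WT and 21 in KO rose with IL-4 and none fell. Of 18 genes for other mitochondrial proteins, chosen as a gauge of mitochondrial abundance, 7 rose and 7 fell with IFN-gamma in WT, 9 rose and 5 fell in KO, and 6 in WT and 12 in KO rose with IL-4 with none falling.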

How the data were processed

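The authors deposited normalized counts per gene, a signal whose values are whole reads divided by 1 factor per library, as the values themselves show. The submitters' processing notes name STAR 2.5, HTSeq 0.6, DESeq2, edgeR and the build GRCm38, without their roles or a strand setting. Dividing the deposited values by the value of 1 read gave whole numbers for 100% of values (tolerance 0.1), and these reads served for depth and for the count models. RNA was taken with Trizol and made into directional poly(A) libraries, per the labels' protocols.

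Values were taken as log2(normalized count + 1) and fitted with limma 3.58.1 (R 4.3.3) on means of 6 groups with a mean-variance trend, 12 residual degrees of freedom and 14288 genes with at least 10 in at least 3 libraries. Benjamini-Hochberg adjustment ran over all of them, with 0.05 as the threshold, and fold changes on this scale understate those of low genes. All comparisons with an n of 3 rest on this model. Alternatives were pseudocounts of 0.5 and 5, no filter, TMM factors, equal library totals, and edgeR 4.0.16 and DESeq2 1.42.0 on the recovered reads. Further ones were an animal block, only the libraries compared, and leaving out each replicate. For KO against WT the block was the replicate number in place of the animal. A stromal marker covariate was added after seeing the data. The scripts were tested on simulated data. Libraries of 1 animal shared a number in the labels, and their deviations from group means correlated at 0.0036 to 0.243 over 18 pairs, 13 of them over 0.1.

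The members and gene lists were chosen with earlier results of these data known. Named members were the called ones with the largest change, all complex II genes, selected catalytic subunits, isoform sets and the extremes of level, and others named were chosen after their values were seen. The labels give separate animals by code, 3 per genotype. Promoter sequences are RefSeq's, assembly GRCm38.p6, and gene positions and exon lengths are those of GENCODE M21 on GRCm38.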

Additional observations from a re-analysis of the deposited data

How the results depend on the processing

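The counts of passing members kept within 1.5 times their main value in most alternatives. Exceptions for KO against WT were DESeq2 (1 untreated, 2 with IL-4), a fit of only the libraries compared (5 untreated, 0 with IL-4), equal library totals (4 with IL-4) and the stromal marker covariate (1 untreated, 8 with IFN-gamma). Equal totals gave 18 members for IL-4 in WT and 36 in KO, and a fit of only the libraries compared gave 3 for the IFN-gamma interaction. A turn of direction does not show in such counts. For IFN-gamma, equal totals gave 15 higher and 18 lower in WT in place of 36 and 3. In KO they gave 8 higher and 31 lower in place of 28 and 4. The cause was not tested.

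With 1 replicate left out, passing members ranged from 29 to 36 for IFN-gamma in WT and 25 to 32 in KO, 21 to 60 for IL-4 in WT (lowest without untreated replicate 3) and 29 to 67 in KO (lowest without IL-4 replicate 1), and 19 to 33 for IFN-gamma against IL-4 in WT and 17 to 43 in KO. For KO against WT the ranges were 0 to 0 untreated, 1 to 4 with IFN-gamma (1 without WT replicate 1) and 0 to 8 with IL-4 (8 without KO replicate 3, 0 without KO replicate 1 or 2 or WT replicate 3), and for both interactions 0 to 0. For IFN-gamma against IL-4 in KO the lowest count was without KO IL-4 replicate 1, and 19 passed without KO IFN-gamma replicate 3. A group left with 2 libraries was assumed to vary like the others.

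With the animal block, which pairs libraries of 1 animal, 55 members passed for IL-4 in WT and 59 in KO. For IFN-gamma 40 and 33 passed, for IFN-gamma against IL-4 33 and 38, and for both interactions 0. KO against WT was instead blocked by replicate number, which ties libraries of different animals. There 0, 4 and 1 members passed untreated, with IFN-gamma and with IL-4.

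Of 143 named changes that passed, 72 passed in every setting and 3 turned sign in any. Under equal library totals the IFN-gamma change turned to -0.078 for Atp5a1 in WT, -0.043 for Atp5a1 in KO and -0.035 for Cox7a2l in WT.

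Other sign changes were of values that had not passed. Under equal totals the IFN-gamma change became -0.14 for Cox4i1 in WT and -0.23 in KO, -0.045 for Cox6b1 in KO, -0.28 for Ndufv1 in WT, -0.25 for Sdha in WT and -0.27 in KO, -0.19 for Uqcrc1 and -0.15 for Uqcrfs1 in WT. The Uqcrfs1 change with IL-4 in WT became -0.016. IFN-gamma against IL-4 in KO became -0.020 for Ndufs4, -0.20 for Sdhb and -0.033 for Sdhd, and the Sdhd interaction with IFN-gamma -0.011. TMM factors gave -0.052 for Ndufv1 and -0.013 for Sdha with IFN-gamma in WT, and -0.035 for Sdhb in IFN-gamma against IL-4 in KO. There edgeR gave -0.0016 for Sdhb, and -0.0032 for Ndufv1 with IFN-gamma in WT. With the stromal covariate, KO against WT became -0.061 for Sdha, -0.016 for Sdhb and -0.0031 for Sdhc untreated, and -0.020 for Sdhc with IFN-gamma.

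With 1 replicate left out, changes that had not passed and turned sign ranged from -0.29 to 0.19 for Atp5g2 with IL-4 in KO and from -0.37 to 0.18 in WT, from -0.031 to 0.053 for Ndufv1 with IFN-gamma in WT, and from -0.056 to 0.042 for Sdhc. For IFN-gamma against IL-4 in KO, Sdhb ranged from -0.090 to 0.11. For KO against WT, Sdha untreated ranged from -0.0092 to 0.044, Sdhb with IFN-gamma from -0.093 to 0.0066 and Sdhc with IL-4 from -0.012 to 0.25, and the IL-4 interaction of Sdhc from -0.18 to 0.085.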
